A study of Mus musculus with 8 samples.

Results

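The genes described here are the class IA phosphoinositide 3-kinase (PI3K) subunits *Pik3ca*, *Pik3cb*, *Pik3r1*, *Pik3r2* and *Pik3r3*, the AKT kinases *Akt1* and *Akt2*, and the AKT phosphatase *Phlpp2*. They were chosen by symbol, and all 8 were found among the 54532 entries of the count table and among the 14150 genes with enough counts to be tested. RNAseq was performed on primary lung fibroblasts (pFBs) of female mice, with 4 libraries from wild-type animals (WT) and 4 from animals homozygous for a human IGFBP5 transgene (HOMO). The transgene was knocked in with CRISPR/Cas9 under an Ef1a1 promoter on a C57 black background, and the cells of both genotypes were cultured in serum-containing medium without further treatment. The age of the animals and the number of mice behind the libraries are not given in the sources used here, so n counts libraries, and p-values measure the spread between libraries, which may be technical in part. In bulk RNA, fewer cells of one kind and less RNA per cell cannot be told apart.

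A class IA PI3K is a dimer of a catalytic subunit, which phosphorylates a membrane inositol lipid, and a regulatory subunit, which holds the enzyme at rest and docks it on activated receptors and adaptors. The lipid it makes recruits AKT to the membrane, where AKT is phosphorylated and then acts on regulators of growth, survival and metabolism, and PHLPP phosphatases remove an activating phosphate from AKT. In fibroblasts the pathway is known for its place downstream of growth factor receptors and for its part in proliferation and matrix production. The activity of PI3K and AKT depends on phosphorylation, which these data do not measure.

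Levels are CPM, which are counts scaled to the size of the library, here with the TMM method of edgeR. Between 17236521 and 29028769 reads were counted in the WT libraries and between 19009027 and 31987790 in the HOMO libraries, so that 3 counts stood for 0.0938 to 0.174 CPM, a floor that covers counting error only. Differences are log2 fold changes of HOMO over WT from edgeR's two-sided quasi-likelihood F test, with p-values adjusted by the Benjamini-Hochberg method over the 14150 tested genes. A gene was called a DEG where the adjusted p was under 0.05 and the log2 fold change was past 0.6 in either direction. Some libraries of a genotype lay close together: the coefficient of variation was 4.71 to 7.65% for WT1 with WT2, HOMO1 with HOMO2 and HOMO3 with HOMO4, more than sampling noise, and 30.05 to 56.4% for the other pairs. Summing each close pair left 0 of the 8 members called by edgeR, with 2 at an unadjusted p under 0.05, and likewise 0 of 16130 genes, with 2057 at an unadjusted p under 0.05. All 10 fibroblast markers passed the filter on low counts, 1 of them (*Vim*) called lower in HOMO, with summed levels of 18464 to 24845 CPM in WT and 18969 to 31699 CPM in HOMO. The most abundant were *Fn1*, *Col1a1* and *Col1a2*, at means of 6945, 4917 and 4144 CPM in WT. *Col1a1*, *Col1a2* and *Col3a1* had log2 fold changes of 0.82, 0.66 and 0.63, and *Thy1* and *S100a4* of -1.62 and -2.07, none of them called. The summed level of 8 leukocyte markers was 110 and 141 CPM in WT1 and WT2, 1871 and 1098 CPM in WT3 and WT4, and 23.4 to 156 CPM in HOMO. Summed epithelial markers ranged from 0.563 to 2.13 CPM in WT and from 4.32 to 20.8 CPM in HOMO, with *Cdh1* and *Hopx* called higher. *Foxj1*, the only other one tested, had a log2 fold change of -0.57 and was not called. The untested *Scgb1a1* counted 3, 110, 130 and 1 in HOMO1 to HOMO4, and the untested *Sftpc* 1, 48, 99 and 3. Summed endothelial markers ranged from 2.31 to 8.09 CPM in WT and from 2.63 to 5.78 CPM in HOMO. Mesothelial markers summed to 51.8 to 118 CPM in WT1, WT2 and WT4, 155 CPM in WT3 and 92.2 to 131 CPM in HOMO, with the Wilms tumour gene *Wt1* called higher, at mean levels of 3.26 CPM in WT and 33.3 CPM in HOMO. *Krt19* of the same list went the other way, from 16.9 CPM in WT to 2.04 CPM in HOMO, and was not called (edgeR adjusted p = 0.0856). *Msln*, *Upk3b* and *Lrrn4* were not called either, with log2 fold changes of -0.52, 0.09 and 0.22. Smooth muscle and pericyte markers summed to 63.5 to 141 CPM in WT1, WT2 and WT4, 379 CPM in WT3 and 12.6 to 125 CPM in HOMO, with *Rgs5* called lower. The part of other cell types in the members' differences was not tested. With WT3 and WT4 left out, edgeR called 4 members and 3117 of 14912 genes.

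The human transgene was not analysed here. Mouse *Igfbp5* counted 409 CPM in WT3, 4.34 to 9.65 CPM in the other WT libraries and 1.07 to 2.86 CPM in HOMO.

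Of the 8 members, *Pik3cb*, *Pik3r2* and *Phlpp2* were upregulated in HOMO pFBs, by 1.86, 1.52 and 2.39 fold, and 0 were downregulated by the same call. An unadjusted edgeR p under 0.05 was reached by 4 of the 8, and by 4573 of the 14150 tested genes. The 3 called genes are 37.5% of the members, against 12.1% of all tested genes called by edgeR in either direction, 5.94% called upregulated and 6.18% called downregulated. DESeq2 called 4 of the 8, against 16.5% of the genes it tested. The same 3 members had every HOMO library above every WT library, an order that 14.0% of tested genes showed, while 13.4% showed the opposite order and 27.3% either one. *Pik3ca*, *Pik3r1*, *Pik3r3*, *Akt1* and *Akt2* were not called. The median log2 fold change was 0.09 over the members and -0.04 over all tested genes.

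**Figure D1:**
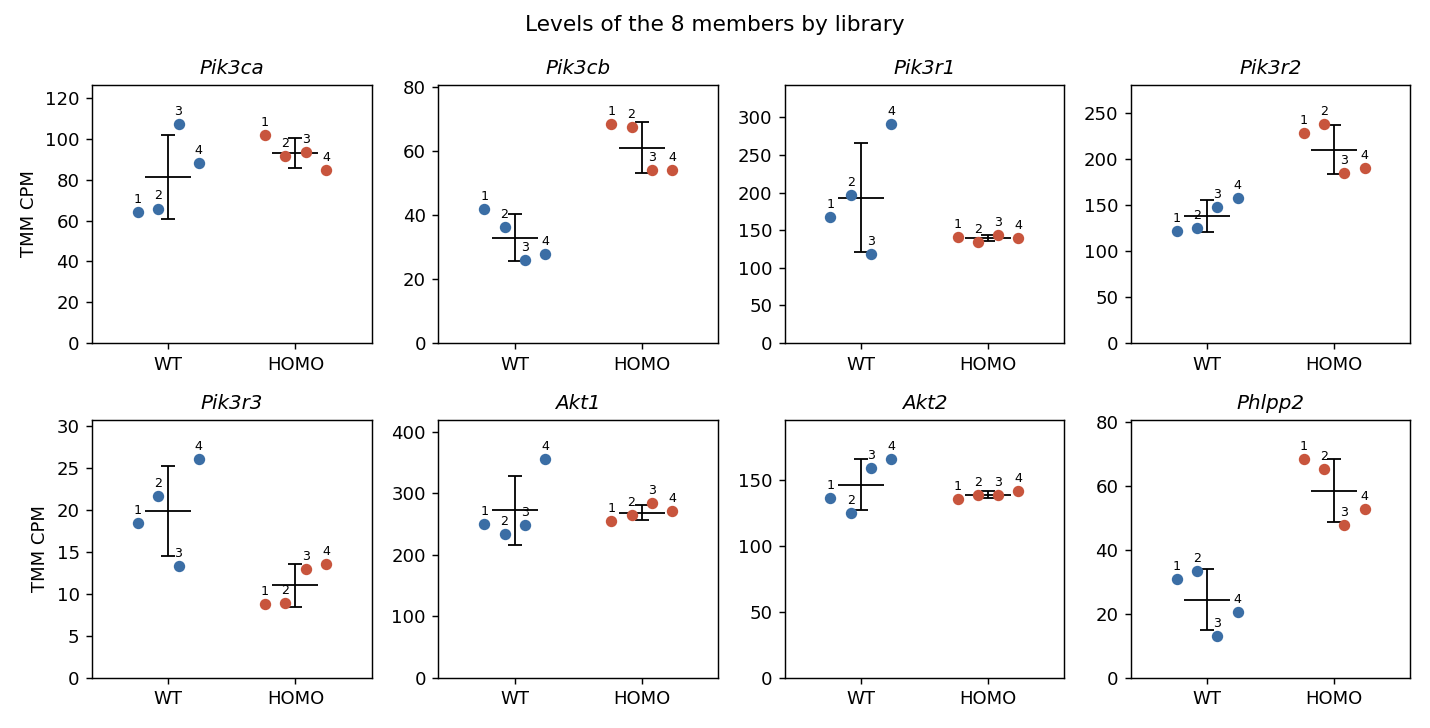
Level of each of the 8 members in each library, in TMM CPM on an axis from 0, with the library number beside each point and the mean and SD of each genotype (n = 4) as lines and bars. WT and HOMO points do not overlap for Pik3cb, Pik3r2 and Phlpp2, and overlap for the other members.

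Both *Pik3ca* and *Pik3cb* encode catalytic subunits, the alpha and beta isoforms, which are found in most tissues. *Pik3cb* lies on chromosome 9 from 99036654 to 99140621 on the minus strand of GRCm38. It counted 41.9, 36.2, 26.1 and 27.8 CPM in WT1 to WT4 and 68.5, 67.8, 54.1 and 54.3 CPM in HOMO1 to HOMO4. The lowest HOMO library was thus above the highest WT library, and HOMO1 and HOMO2 were higher than HOMO3 and HOMO4. Mean levels were 33.0 ± 7.39 CPM in WT and 61.2 ± 8.05 CPM in HOMO (SD, n = 4), and the log2 fold change was 0.89 (SE 0.19, 95% interval 0.47 to 1.31, edgeR adjusted p = 0.0194). The gene stayed called under 15 of 18 alternative settings, leave-one-out fits included, and was no longer called with close libraries summed, without HOMO1 or without HOMO2; in the leave-one-out fits the adjusted p reached up to 0.0728.

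*Pik3ca* lies on chromosome 3 from 32397671 to 32468486 on the plus strand. Its level was 64.1, 65.9, 107.2 and 88.1 CPM in WT1 to WT4 and 102.2, 91.8, 93.9 and 84.7 CPM in HOMO1 to HOMO4. WT3 was the highest library of all and WT1 and WT2 the lowest, so the genotypes overlapped. The log2 fold change was 0.20 (SE 0.18, 95% interval -0.22 to 0.61, edgeR adjusted p = 0.493), an interval that holds both a decrease and an increase that reaches the threshold. The median gene of chromosome 3 also stood apart in WT3, at 0.33 above its mean over libraries on the log2 scale. With the median shift of each chromosome removed in every library, the log2 fold change of *Pik3ca* was 0.38 (edgeR adjusted p = 0.110). The part of the chromosome 3 shift of WT3 alone was not tested.

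Of the 3 regulatory subunits, 1 was called. *Pik3r2*, which encodes the beta regulatory subunit, lies on chromosome 8 from 70768176 to 70776713 on the minus strand. It counted 122, 125, 148 and 157 CPM in WT1 to WT4 and 228, 238, 185 and 190.2 CPM in HOMO1 to HOMO4. All HOMO libraries were above all WT libraries, and HOMO1 and HOMO2 were again the highest. Mean levels were 138 ± 17.4 CPM in WT and 210.2 ± 26.4 CPM in HOMO (SD, n = 4), and the log2 fold change was 0.61 (SE 0.15, 95% interval 0.28 to 0.94, edgeR adjusted p = 0.0308), just past the fold threshold. Under 18 alternatives it kept its direction in all and its call in 9. It was not called without WT1, WT2, HOMO1, HOMO2 or HOMO4, with log2 fold changes of 0.55 to 0.68 and adjusted p-values of up to 0.107 over all fits without 1 library. Its exons share 45 bases with an entry on the opposite strand, 6330537M06Rik, and the strand setting of the counting is not given in the sources used here.

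*Pik3r1* encodes the alpha regulatory subunit and lies on chromosome 13 from 101680563 to 101768217 on the minus strand. The WT libraries held 168, 197, 118 and 290.8 CPM, and the HOMO libraries 141, 134, 143 and 139 CPM. The HOMO values fell within the WT range, and the spread was wide in WT only, with an SD of 72.7 CPM against 3.74 CPM in HOMO. The log2 fold change was -0.47 (SE 0.25, 95% interval -1.03 to 0.09, edgeR adjusted p = 0.220). WT3 was the lowest library and WT4 the highest. Without WT3 the log2 fold change was -0.65 and the gene was called, with an adjusted p of 0.0440.

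*Pik3r3*, which encodes the gamma regulatory subunit, lies on chromosome 4 from 116221618 to 116303056 on the plus strand. It was the least abundant of the 3 by CPM, with 18.5, 21.6, 13.3 and 26.01 CPM in WT1 to WT4 and 8.74, 8.83, 12.9 and 13.5 CPM in HOMO1 to HOMO4. The genotypes touched at a single pair, WT3 against HOMO4. The log2 fold change was -0.85 (SE 0.26, 95% interval -1.44 to -0.27), larger in size than that of *Pik3r2*, but the edgeR adjusted p was 0.0592 and the gene was not called. It was called by DESeq2, by limma-voom, without WT3, and without both WT3 and WT4, where its log2 fold change was -0.87 and its adjusted p 0.0268. Of its exon bases, 24.3% are shared on the same strand with another entry, Gm49337, which was listed with 0 counts in all 8 libraries, so its level per length is uncertain.

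The AKT kinases did not pass the test. *Akt1* lies on chromosome 12 from 112653821 to 112674884 on the minus strand and counted 249.7, 234, 248 and 355 CPM in WT1 to WT4 and 254, 264, 284 and 270.5 CPM in HOMO1 to HOMO4. WT4 stood above all other libraries, and the HOMO values lay between WT4 and the other WT libraries. The log2 fold change was -0.02 (SE 0.16, 95% interval -0.38 to 0.34, edgeR adjusted p = 0.947). Chromosome 12 as a whole was high in WT4, with its median gene 0.33 above its mean over libraries on the log2 scale, against -0.34 to -0.27 in the other WT libraries. Without WT4 the log2 fold change of *Akt1* was 0.14, and with the median shift of each chromosome removed it was -0.32 (adjusted p = 0.109).

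*Akt2* lies on chromosome 7 from 27591552 to 27640826 on the plus strand, with 136, 125, 159 and 166 CPM in the WT libraries and 135, 139, 139 and 142 CPM in the HOMO libraries. The HOMO libraries were close together and inside the WT range. The log2 fold change was -0.08 (SE 0.13, 95% interval -0.36 to 0.21, edgeR adjusted p = 0.704), which leaves room for changes smaller than the fold threshold in either direction. A processed copy, Akt2-ps, held 0 to 12 counts per library.

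*Phlpp2* encodes a phosphatase that acts against AKT, and it had the largest log2 fold change of the 8 members. It lies on chromosome 8 from 109868542 to 109944671 on the plus strand. Its level was 30.9, 33.5, 12.9 and 20.6 CPM in WT1 to WT4 and 68.5, 65.3, 47.7 and 52.8 CPM in HOMO1 to HOMO4. The lowest HOMO library was above the highest WT library, and WT3 was the lowest of all. Mean levels were 24.5 ± 9.53 CPM in WT and 58.6 ± 9.91 CPM in HOMO (SD, n = 4), and the log2 fold change was 1.26 (SE 0.29, 95% interval 0.59 to 1.92, edgeR adjusted p = 0.0281). The call was kept under 12 of 18 alternatives, and leaving out single libraries gave log2 fold changes of 1.05 to 1.45, with the call lost without WT4, HOMO1, HOMO2 or HOMO4 at adjusted p-values of up to 0.0913. With WT3 and WT4 both left out it was 0.86, and the gene was still called.

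Of the 3 upregulated members, *Pik3r2* and *Phlpp2* lie on chromosome 8, where most tested genes had a higher level in HOMO. The median log2 fold change of the 790 tested genes there was 0.37, 73.8% of them had a positive value, and 17.1% were called upregulated by edgeR against 5.94% of all tested genes. *Phlpp2* had a larger log2 fold change than 90.3% of the chromosome's tested genes and *Pik3r2* than 67.2%. With the median shift of each chromosome in each library removed, *Phlpp2* was at 0.86 (SE 0.28, adjusted p = 0.0742) and *Pik3r2* at 0.20 (SE 0.14, adjusted p = 0.370), and neither was called. *Pik3cb* was above 89.5% of the tested genes of chromosome 9, where the median was 0.12, and after the same step it was at 0.70 with an adjusted p of 0.0490 and remained called.

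**Figure D2:**
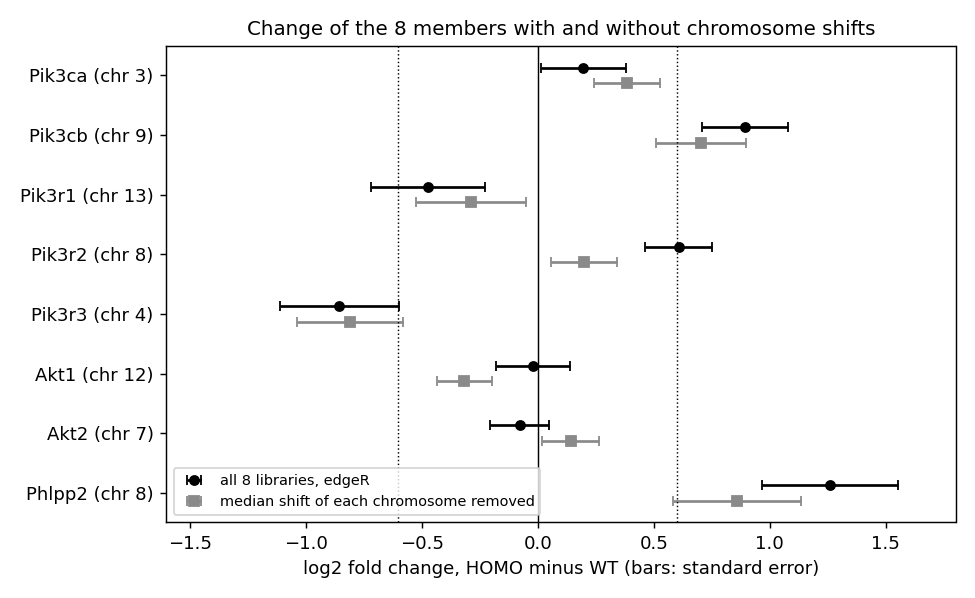
Log2 fold change of HOMO over WT for each member with its standard error, as fitted by edgeR on all 8 libraries (circles) and with the median shift of each chromosome removed from each library (squares). The dotted lines mark the threshold of 0.6 in either direction; Pik3r2 moves from 0.61 to 0.20 and Phlpp2 from 1.26 to 0.86, while Pik3cb stays past the line at 0.70.

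The promoters of the 3 upregulated members and of *Pik3r1*, a regulatory subunit that was not called, are shown because all 4 are rich in CpG while only the first 3 were called. The sequences are from RefSeq on GRCm38.p6, read 5′ to 3′ on the strand of the gene, and leave out bases that GENCODE M21 places in an exon. They lie before the start that RefSeq gives. For *Pik3cb* GENCODE M21 begins the gene farther upstream, so its whole RefSeq window lies inside the GENCODE gene, with 140 of 250 bases in an exon, and the printed stretch is intron of that model. For *Phlpp2* 61 bases of the window are in an exon. Capitals mark a GC box, GGGCGG on either strand, the core bound by SP1-type factors.

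Pik3cb promoter, chr9:99140212-99140321, minus strand: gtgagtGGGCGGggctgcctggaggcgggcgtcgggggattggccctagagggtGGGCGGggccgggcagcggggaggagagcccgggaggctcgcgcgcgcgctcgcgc

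Pik3r2 promoter, chr8:70776714-70776962, minus strand: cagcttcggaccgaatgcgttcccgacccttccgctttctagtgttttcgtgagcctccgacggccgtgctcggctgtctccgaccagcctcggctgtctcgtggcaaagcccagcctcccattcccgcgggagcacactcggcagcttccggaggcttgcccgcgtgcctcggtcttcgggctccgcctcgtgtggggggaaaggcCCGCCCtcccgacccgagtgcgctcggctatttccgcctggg

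Phlpp2 promoter, chr8:109868353-109868541, plus strand: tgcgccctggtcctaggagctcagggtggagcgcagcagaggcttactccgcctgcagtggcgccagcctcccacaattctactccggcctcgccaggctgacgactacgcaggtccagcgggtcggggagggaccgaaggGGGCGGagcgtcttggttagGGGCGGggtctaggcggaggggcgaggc

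Pik3r1 promoter, chr13:101768218-101768467, minus strand: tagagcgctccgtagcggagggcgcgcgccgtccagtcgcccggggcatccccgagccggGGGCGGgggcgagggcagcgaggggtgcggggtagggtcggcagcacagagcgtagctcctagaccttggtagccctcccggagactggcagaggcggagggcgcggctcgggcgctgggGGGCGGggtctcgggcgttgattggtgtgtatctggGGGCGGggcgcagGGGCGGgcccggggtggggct

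Over the full 250 bases before the RefSeq start, exon bases included, *Pik3cb* held 32 CpG sites, *Pik3r1* 30, *Pik3r2* 29 and *Phlpp2* 29, against a median of 6 over 32851 promoters of the same length. *Pik3ca* held 19, *Pik3r3* 12, *Akt2* 10 and *Akt1* 7. A GC box was found in 7 of the 8 windows, with *Akt1* as the exception, and in 32.7% of all promoters. The FOXO core GTAAACA, on either strand, was found in the *Akt1* window alone among the members and in 3.17% of all promoters. The CRE core TGACG was present in *Pik3r3*, *Akt2* and *Phlpp2* and in 17.8% of all promoters, CCAAT in *Pik3cb* and *Pik3r1* and in 33.8%, and the AP-1 site TGANTCA in *Pik3ca* and in 6.75%. The E box CACGTG, the NRF1 core and the TATA box TATAAA were not among the letters of the 8 windows. These matches are descriptions of sequence, and the binding of factors was not measured.

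Levels of different genes were compared as CPM per kilobase of exon. In WT the order from high to low was *Akt1* (66.3), *Pik3r2* (33.0), *Akt2* (20.5), *Pik3r1* (19.2), *Pik3ca* (8.95), *Pik3cb* (4.58), *Pik3r3* (3.74) and *Phlpp2* (2.90). The neighbours *Akt2* and *Pik3r1*, *Pik3r1* and *Pik3ca*, *Pik3cb* and *Pik3r3*, and *Pik3r3* and *Phlpp2* overlapped between libraries. In HOMO the first 6 genes kept this order, at 65.4, 50.3, 19.4, 13.8, 10.3 and 8.502, while *Phlpp2* at 6.93 stood above *Pik3r3* at 2.07. The neighbours that overlapped in HOMO were *Pik3ca* and *Pik3cb*, and *Pik3cb* and *Phlpp2*.

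**Figure D3:**
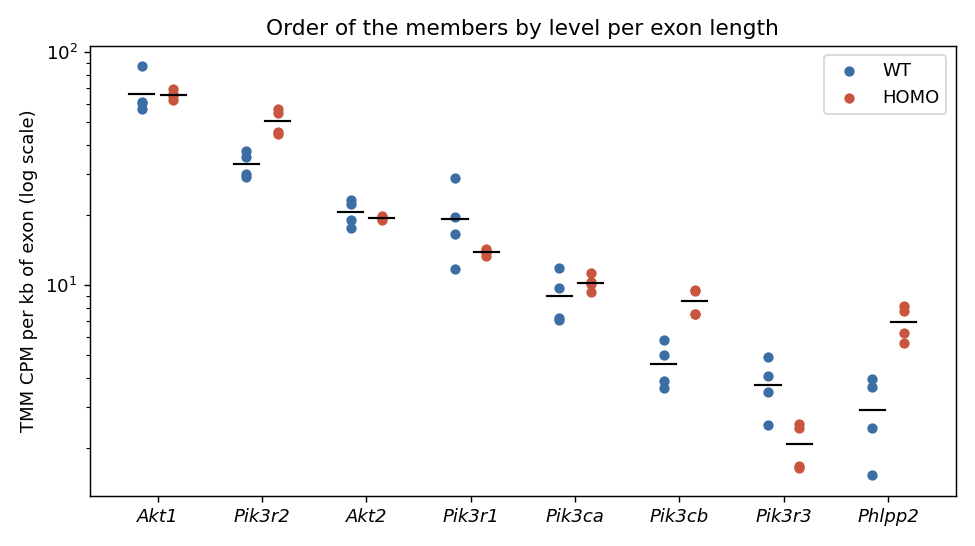
Level of each member per kilobase of exon in TMM CPM, on a log axis, in each WT and HOMO library, with horizontal lines at the means. Akt1 is the highest in both genotypes, at means of 66.3 and 65.4, and Phlpp2 passes Pik3r3 in HOMO.

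Balances within the pathway were measured as log2 ratios of counts per kilobase inside a library, which need no scaling to library size, and HOMO was set against WT by an exact permutation test (two-sided, 70 assignments of libraries, smallest p 0.0286). The ratio of *Pik3r2* to *Pik3r1* was 1.75, 1.53, 3.03 and 1.30 in WT1 to WT4 and 3.90, 4.27, 3.12 and 3.30 in HOMO1 to HOMO4. All HOMO ratios were above all WT ratios, although WT3 came close to HOMO3. On the log2 scale the mean went from 0.85 ± 0.53 to 1.86 ± 0.21 (SD, n = 4 each), a difference of 1.00 with an exact permutation p of 0.0286, the smallest it can give, and 0.114 after adjustment over the 4 ratios. With chromosome shifts removed the difference was 0.42 (exact permutation p = 0.143). With each close pair of libraries summed it was 0.97 (exact permutation p = 0.2, where 0.1 is the smallest possible).

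*Pik3cb* made up 45.2, 40.9, 23.5 and 28.5% of the summed *Pik3ca* and *Pik3cb* level per kilobase in WT1 to WT4 and 45.8, 48.3, 42.1 and 44.7% in HOMO1 to HOMO4. WT1 lay within the HOMO range and the 3 other WT libraries below it. The log2 ratio differed by 0.68 (exact permutation p = 0.0857, adjusted 0.171), and by 0.34 with chromosome shifts removed (exact permutation p = 0.371). *Akt2* relative to *Akt1* differed by -0.07 (exact permutation p = 0.571), and the 3 regulatory relative to the 2 catalytic subunits by -0.21 (exact permutation p = 0.286, adjusted 0.381). With chromosome shifts removed the first turned to 0.47 (exact permutation p = 0.0571) and the second went to -0.47 (exact permutation p = 0.0286, the smallest it can give). Before that step, 0 of the 4 balances passed 0.05 after adjustment and 1 did unadjusted.

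**Figure D4:**
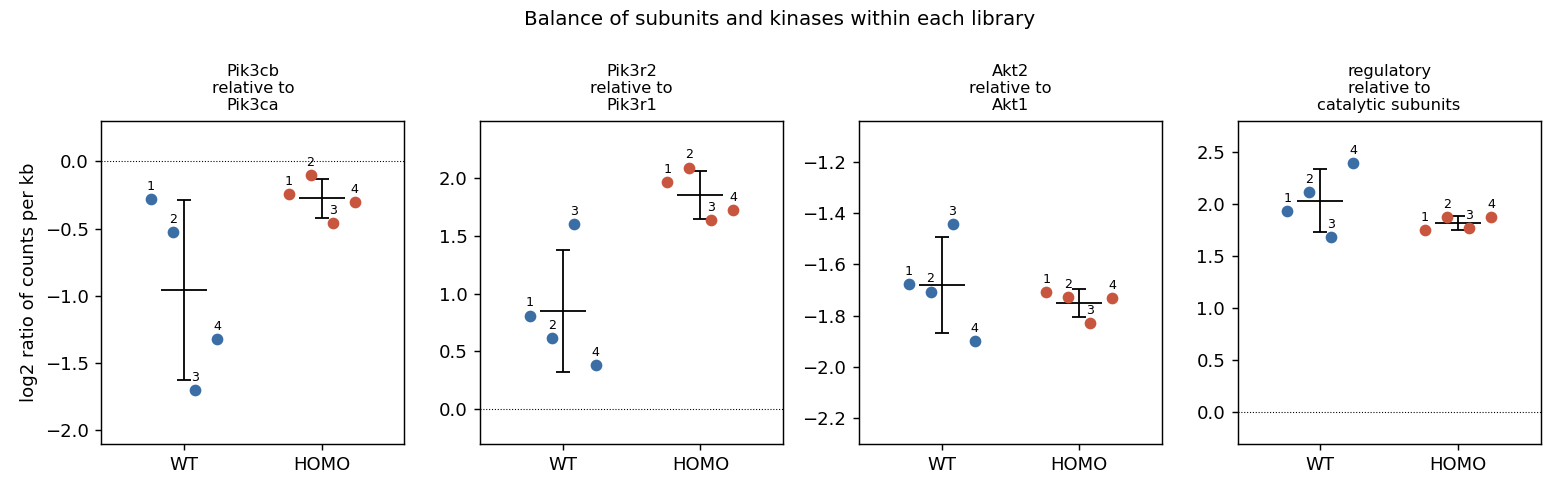
Log2 ratio of counts per kilobase within each library for 4 balances of subunits and kinases, with the mean and SD of each genotype (n = 4); the axes differ between panels. Only for Pik3r2 relative to Pik3r1 do the WT and HOMO points not overlap.

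The genes whose pattern over the 8 libraries was nearest to a member were found as the smallest root mean square difference of log2 CPM after centring each gene on its mean. For *Pik3cb* these were *Plagl2* (0.0703) and *Mau2* (0.0781), and for *Pik3r2* they were *Hdac5* (0.0588) and *Slc25a51* (0.0712). For *Phlpp2* they were Gm10033 (0.0842) and D130040H23Rik (0.0881), both on chromosome 8 as *Phlpp2* is. *Pik3r1* was nearest to *Tpcn1* (0.0562) and *Optn* (0.0657), and *Pik3r3* to *Ank* (0.0941) and *Nadk* (0.111). Among the members with little difference between genotypes, *Akt1* was nearest to *Ica1* (0.0618) and to *Smc6* (0.0682) of the same chromosome, *Akt2* to *Trim3* (0.0575) of the same chromosome and *Ppm1b* (0.0593), and *Pik3ca* to *Ly96* (0.0687) and Rpl17-ps3 (0.0696).

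Around the members, 88 of 91 other genes of the PI3K-AKT pathway were tested. edgeR called 13 of them, 7 upregulated and 6 downregulated, which is 14.8% against 12.1% of all tested genes. Their median log2 fold change was -0.01. The share called was thus near that of all tested genes.

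Upstream of PI3K, 2 of 11 receptors and adaptors were called, against 12.1% of all tested genes. *Gab1*, a docking adaptor that binds the regulatory subunits, had the largest rise in the pathway, from 42.1 ± 3.87 CPM in WT to 128 ± 19.6 CPM in HOMO (SD, n = 4; log2 fold change 1.604, SE 0.15, edgeR adjusted p = 0.00111), and it also lies on chromosome 8. *Pdgfrb*, a receptor for platelet-derived growth factor, fell from 677 ± 189 to 347 ± 57.6 CPM (log2 fold change -0.97, SE 0.22). Among the 6 tested class IB, II and III subunits, *Pik3r5*, a regulatory subunit of the class IB enzyme, fell by 1.05 on the log2 scale (adjusted p = 0.0319). *Pik3cg*, its catalytic partner in leukocytes, had a log2 fold change of -2.42 (SE 1.14, adjusted p = 0.180) with 9, 16, 66 and 173 counts in WT and 2, 1, 18 and 24 in HOMO, and *Pik3r4* was at 0.18. Within WT, the counts of *Pik3cg* were highest in WT3 and WT4, the libraries with the highest leukocyte markers. Those of *Pik3r5* were 230, 282, 183 and 430 in WT1 to WT4, with WT3 the lowest. The part of leukocyte RNA in these class IB values was not tested.

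Of 11 tested lipid phosphatases, which break down the products of PI3K, *Inpp5a*, which acts mainly on soluble inositol phosphates, fell by 1.24 on the log2 scale (SE 0.33, adjusted p = 0.0408). *Inpp5d*, the leukocyte phosphatase SHIP, was at -2.29 (adjusted p = 0.168), again with most counts in WT3 and WT4 (170 and 381, against 26 and 22 in WT1 and WT2), and *Inppl1* was at 0.54 (adjusted p = 0.0876). Of the protein phosphatases of AKT, 3 of 10 were called, all upregulated, against 12.1% of all tested genes called and 5.94% called upregulated. The genotypes did not overlap for 6 of the 10, with 3 higher and 3 lower in HOMO, and the median log2 fold change was 0.0046. Beside *Phlpp2* the called genes included *Ppp2r5a*, a regulatory subunit of protein phosphatase 2A, at 0.75 (SE 0.13, adjusted p = 0.0109). The lowest value of the list was -0.36 for *Ppp2r5b*.

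Of 8 genes listed as other inhibitors of PI3K or AKT, 4 were called, 3 upregulated and 1 downregulated, against 12.1% of all tested genes. The median log2 fold change of the list was 0.04, and 4 of the 8 values were positive. The pseudokinases *Trib1* and *Trib2* rose by 1.09 (SE 0.28, adjusted p = 0.0377) and 1.57 (SE 0.34, adjusted p = 0.0214) on the log2 scale. The related *Trib3* was at -0.04 (edgeR adjusted p = 0.961). Whether *Trib1* and *Trib2* act against AKT in these cells was not tested. *Phlda3*, which competes with AKT for membrane lipid, fell by 0.88 (SE 0.17, adjusted p = 0.0134). *Grb10*, an adaptor that restrains insulin and IGF1 receptors, was at -2.16 (adjusted p = 0.113), with 20366 counts in WT4 against 1310 to 3696 in the other WT libraries. The list therefore held members of both directions.

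Downstream, edgeR called 0 of 7 AKT-activating kinases and mTORC2 subunits, 0 of 11 genes of the mTORC1 arm and 0 of 11 other AKT substrates, with 2, 7 and 2 at an unadjusted p under 0.05. Over all 14150 tested genes, edgeR called 1716, and 4573 were under that p. DESeq2 called 0, 1 and 0 of the 3 lists, against 2913 of 17610 genes. limma-voom called 1, 0 and 2, against 3573 of 14150. The extremes of these lists were *Mapkap1* at -0.41 and *Prr5l* at 1.09 in the first list, *Tbc1d7* at -0.77 and *Tsc1* at 0.55 in the second, and *Cdkn1a* at -0.56 and *Cdkn1b* at 0.54 in the third. *Cdkn1b*, a cyclin-dependent kinase inhibitor, had an adjusted p of 0.0176 and missed the call by its fold alone.

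FOXO factors are held out of the nucleus by AKT. Of 12 genes they are known to induce, edgeR called 3, in both directions, against 12.1% of all tested genes. *Bcl2l11*, which encodes the death factor BIM, rose from 11.8 ± 3.40 to 31.5 ± 12.6 CPM (log2 fold change 1.41, adjusted p = 0.0291). *Pdk4*, an inhibitory kinase of pyruvate dehydrogenase, fell from 27.9 ± 1.11 to 7.88 ± 1.96 CPM (log2 fold change -1.83, adjusted p = 0.00217), and *Klf4*, a transcription factor, fell by 1.57 on the log2 scale (adjusted p = 0.0194). The 12 genes had a median log2 fold change of -0.13. limma-voom called 8 of them and DESeq2 3, against 3573 of 14150 and 2913 of 17610 of all genes each tool tested.

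**Figure D5:**
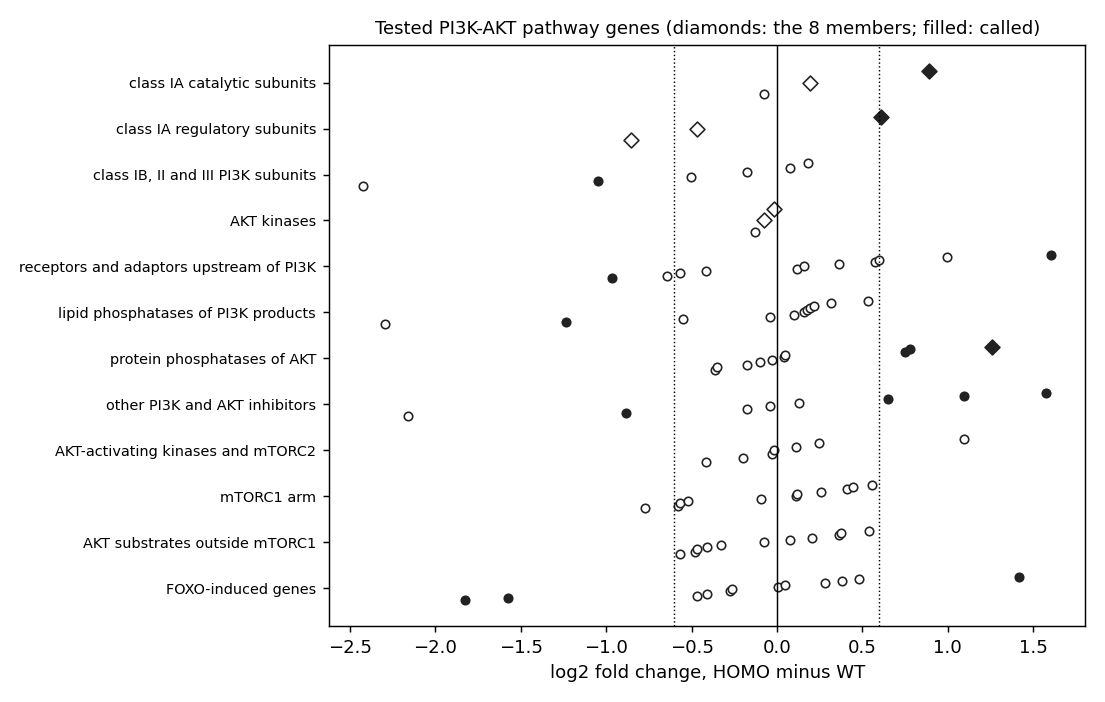
Log2 fold change of HOMO over WT for every tested gene of the PI3K-AKT lists, one row per list, with the 8 members as diamonds, the other genes as circles, and called genes filled. The dotted lines mark 0.6 in either direction; called genes lie on both sides, and the mTORC1 arm, the mTORC2 list and the other AKT substrates hold no filled symbol.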

How the data were processed

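RNAseq counts of 4 WT and 4 HOMO libraries of mouse pFBs were used. The authors used STAR on mm10 and featureCounts, and the deposited table holds raw gene counts under the label "outlierout". What that label left out, and the strand setting, are not given in the sources used here. Libraries were grouped by genotype and named after the replicate number in their labels. These numbers do not pair WT with HOMO libraries, and the result with the replicate number as a block is given once, with the alternatives.

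Counts were tested with edgeR 4.0.16 (TMM, filterByExpr by genotype, quasi-likelihood F test) under R 4.3.3, which kept 14150 of 54532 entries. The alternatives used DESeq2 1.42.0, the tool of the study, and limma 3.58.1. A standard error was taken as the size of the log2 fold change over the square root of F. Log2 CPM has a prior count of 2. Positions and exon lengths are from GENCODE M21 (GRCm38), which matched 53679 entries. The script was tested on simulated data. Figures were drawn with matplotlib 3.10.9.

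Alternatives were other normalizations and filters, other tools, the replicate block, summed close pairs, removal of each chromosome's median shift in each library, stricter or no thresholds, and each library left out. Leaving out both WT3 and WT4 was added after seeing the data. Named were all members, the called genes of the pathway lists with each list's lowest and highest, and the 2 nearest patterns per member. The members and lists were chosen with earlier results of these data known. Some genes named by this rule are left out.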

Additional observations from a re-analysis of the deposited data

Results flagged for a closer look

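In 1 of the 24 sets of 4 libraries examined for a library far from the rest, a sample stood out: *Akt1* in WT4, with a log2 CPM of 8.47 against 7.87 to 7.96 in the other WT libraries. Chance flags about 1 in 20 such sets. The median gene of chromosome 12, which holds *Akt1*, was at 0.33 in WT4 and at -0.34 to -0.27 in the other WT libraries on the log2 scale.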

How the results depend on the processing

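The 3 member calls became 0 with near-identical libraries summed or at an adjusted p under 0.01, 1 (*Pik3cb*) with chromosome shifts removed, 2 with the replicate block, and 0 to 5 without 1 library: 0 without HOMO1 or without HOMO2, 1 without HOMO4 and 5 without WT3. Without HOMO1 an unadjusted p under 0.05 was reached by 4 members and by 3311 of 14405 tested genes. Without HOMO2 it was reached by 4 members and by 3309 of 14382. DESeq2, limma-voom and leaving out WT3 and WT4 gave 4. Over all genes the 1716 calls became 2913 with DESeq2, 3573 with limma-voom, 947 with the replicate block, 0 with close libraries summed (2057 at an unadjusted p under 0.05), 3117 without WT3 and WT4, 398 at an adjusted p under 0.01, and 507 to 2192 without 1 library. The 13 calls among other pathway genes became 23 with limma-voom, 8 with the replicate block, 0 summed (14 at an unadjusted p under 0.05), 21 without WT3 and WT4, 2 at an adjusted p under 0.01, and 3 to 20 without 1 library; the lowest counts came without HOMO1 or HOMO2 and the highest without WT3. Summing leaves 3 WT and 2 HOMO samples, and the cause of the other changes was not tested.

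The difference in *Pik3r2* relative to *Pik3r1* was 0.97 summed (exact permutation p = 0.2, where 0.1 is the smallest possible) and 0.42 with chromosome shifts removed. It was 1.00 with the replicate block (exact permutation p = 0.125, the smallest it allows) and 0.85 to 1.25 without 1 library. *Pik3cb* relative to *Pik3ca* was 0.34 with chromosome shifts removed and ranged from 0.43 to 0.91 without 1 library, the highest without WT1 (exact permutation p = 0.0286). *Akt2* relative to *Akt1* was 0.47 with chromosome shifts removed and -0.14 to 0.011 without 1 library, and the regulatory relative to the catalytic subunits -0.47 (exact permutation p = 0.0286) and -0.33 to -0.0941. The log2 fold change of *Akt1* turned positive with upper quartile normalization (0.0098), limma-voom (0.18), without WT3 and WT4 (0.15), without WT4 (0.14) and without HOMO1 (0.0092), with -0.0871 to 0.14 without 1 library, and that of *Akt2* with limma-voom (0.12), chromosome shifts removed (0.14) and without WT3 and WT4 (0.0876). The lowest count of a member in a library was 196, for *Pik3r3* in HOMO1. The other 6 members kept their direction under all 18 alternatives. WT and HOMO libraries of the same number deviated from their group means with correlations of -0.091, -0.042, 0.014 and -0.124 across genes.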
